A study of Mus musculus with 9 samples.

Results

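Irx3, Ccdc136, Esm1, Ppp2r2c and Sulf2 are 5 genes with high messenger RNA in mouse Th1 cells and low messenger RNA in Th1 cells that had first been grown as Th17 cells. They were picked by symbol from the 22017 genes of the deposited table because they stood among the largest differences below conventional Th1 cells and belong to no T cell gene family. The values that chose them are those of Th17-derived Th1 against Th1 cells, so that difference is described here and not tested. By the same values the genes held ranks 2, 3, 5, 6 and 7 from the bottom of 10538 genes. Csf1 (rank 1) and Gzmk (rank 4) are T cell genes between them, and the log2 difference of the last gene inside, Sulf2, was -2.29, beside -2.18 for Ly6c2, the next gene outside.

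Messenger RNA was sequenced from 9 libraries in 3 groups of 3. All were wild-type C57BL/6 T cells from spleen, activated through CD3 and CD28 for 3 days, rested, given IL-2 (100 U/mL) from day 5, activated again on day 7 and collected on day 10. Th17-derived Th1 cells (titled Th17-1) were grown in the Th17 condition and passed to the Th1 condition at the second activation. Th1 cells (Th1-1) stayed in the Th1 condition throughout, with IL-12 at 10 ng/mL and an antibody against IL-4. Th17 cells (Th17-17) stayed in the Th17 condition, with antibodies that block IL-4, IL-12 and interferon-gamma and with the cytokines IL-1beta (10 ng/mL), IL-6 (20 ng/mL) and TGF-beta (1 ng/mL). Values are FPKM, fragment counts scaled by transcript length and library size, so levels of genes of different length can be compared. Whether the replicates are separate cultures or animals is not in the labels; p-values here reflect the spread between these 9 libraries, which may be technical.

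Library sums ran from 382581 to 405985 FPKM, and the depth in reads is unknown, which leaves no interval for counting error. Summed over 6 T cell markers, the libraries held 649 to 851 FPKM. Ifng and Tbx21, the defining Th1 genes, averaged 894 and 33.0 FPKM in Th17-derived Th1, 1385 and 85.9 FPKM in Th1 and 24.9 and 8.51 FPKM in Th17 cells. Replicate 3 of each group held more Cd8a, which marks cytotoxic T cells, than the other libraries: 104, 117 and 141 FPKM in Th17-derived Th1, Th1 and Th17 cells, against 15.3 to 54.9 FPKM in replicates 1 and 2. The 4 NK cell markers summed to 87.9 to 90.9 FPKM in replicate 3 and 34.2 to 54.3 FPKM elsewhere. Klrc1, an NK receptor gene, carried this sum, whereas Klrb1c reached at most 7.19 FPKM and the other 2 markers stayed below 1 FPKM in every library. The bulk libraries cannot tell fewer cells that carry a transcript from less of it per cell.

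The 5 genes share no known pathway. Irx3 encodes a homeodomain transcription factor of the Iroquois family, which patterns the heart, limb and nervous system. Ppp2r2c encodes a B-type regulatory subunit of protein phosphatase PP2A, of the kind that directs the enzyme to its substrates. Esm1 encodes endocan, a secreted dermatan sulfate proteoglycan best known from endothelial cells, which in humans binds the leukocyte integrin LFA-1. Sulf2 encodes an extracellular sulfatase that removes 6-O-sulfate groups from heparan sulfate, the sugar chain that holds growth factors and chemokines at cell surfaces. Ccdc136 encodes a coiled-coil protein needed for the acrosome of mouse sperm. By annotation (GRCm38) Irx3 lies on chromosome 8 (91798525 to 91802067, minus strand), Ccdc136 on 6 (29396309 to 29426994, plus), Esm1 on 13 (113209659 to 113218098, plus), Ppp2r2c on 5 (36868513 to 36955078, plus) and Sulf2 on 2 (166073089 to 166155663, minus).

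Promoter sequence was searched because the 5 genes were high in the same cells. Each of the 5 had an entry among the RefSeq promoters (GRCm38.p6), which run from 250 bases before to 50 bases after a start site, and the window whose start site is nearest the annotated 5′ end was taken. AGGTGT, the core of sites bound by T-box factors such as T-bet, occurred at -183 and -149 from the start site in Ppp2r2c and in no window of this kind of the other 4 genes, on either strand. Another RefSeq window of Ccdc136, at a later start site, held 1 match at 14 bases after the start. Of all 32851 promoter windows, 13.7% hold it. TTCNNNGAA (STAT sites, 8.30% of windows), TGANTCA (AP-1 sites, 7.81%), TGTGGT (RUNX sites, 16.8%) and the NF-kappaB motif (0.411%) were not in these 5 windows. The 250 bases before the start site are shown 5′ to 3′ for Ppp2r2c, the gene whose libraries overlapped between converted and Th17 cells, and for Esm1 and Sulf2, which lay between Th17 and Th1, with AGGTGT or its complement ACACCT in capitals. The windows of Irx3 and Ccdc136 lie inside the longest annotated transcript and are not shown. A match is a run of letters and not a site.
Ppp2r2c (chr5:36868260-36868509, + strand): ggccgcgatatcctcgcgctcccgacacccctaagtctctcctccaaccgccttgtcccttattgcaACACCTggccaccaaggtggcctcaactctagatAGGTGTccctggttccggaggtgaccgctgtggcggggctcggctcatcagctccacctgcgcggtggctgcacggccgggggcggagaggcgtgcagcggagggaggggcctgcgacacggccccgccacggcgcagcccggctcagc
Esm1 (chr13:113209409-113209658, + strand): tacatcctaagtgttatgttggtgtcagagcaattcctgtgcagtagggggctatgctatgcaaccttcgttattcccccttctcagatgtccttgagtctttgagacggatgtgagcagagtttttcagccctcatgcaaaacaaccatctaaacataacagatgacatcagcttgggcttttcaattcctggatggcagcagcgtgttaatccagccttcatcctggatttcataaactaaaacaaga
Sulf2 (chr2:166155684-166155933, - strand): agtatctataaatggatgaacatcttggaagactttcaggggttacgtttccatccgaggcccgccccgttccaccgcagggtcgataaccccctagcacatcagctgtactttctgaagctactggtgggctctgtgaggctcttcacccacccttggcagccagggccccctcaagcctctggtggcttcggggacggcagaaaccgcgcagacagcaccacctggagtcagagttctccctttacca

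Irx3 was close to an on and off gene in these libraries. It stood at 0.0687, 0.0928 and 0.184 FPKM in Th17-derived Th1 cells, 17.9, 10.3 and 14.8 FPKM in Th1 cells, and was listed at 0 in all 3 Th17 libraries. The groups did not overlap, and the Th17-derived Th1 mean was 0.804% of the Th1 mean, the lowest share of the 5 genes. Converted cells averaged 0.115 ± 0.0610 FPKM and Th1 cells 14.3 ± 3.83 FPKM (SD, n = 3; later means are given likewise). Since Th17 libraries are listed at 0, no fold is given against them. Among the other Iroquois genes, Irx1, Irx4 and Irx6 were listed at 0 in all 9 libraries. Irx5, which shares a gene cluster with Irx3, stood at 0.0408 to 0.0509 FPKM in Th1 cells and at 0 in the other 6 libraries, and Irx2 reached 0.0461 FPKM in 1 Th17-derived Th1 library and was at 0 elsewhere. Irx3 was therefore the family member with a measured level above 1 FPKM. It passed the filter for testing, at least 1 FPKM in at least 3 libraries, through the Th1 group alone.

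Ppp2r2c differed from the rest in that converted cells held no more of it than Th17 cells. Its values were 1.48, 2.56 and 4.20 FPKM in Th17-derived Th1, 12.3, 22.6 and 21.1 FPKM in Th1 and 2.73, 3.05 and 5.81 FPKM in Th17 cells. The Th1 libraries were all above the other 6, and the Th17-derived Th1 and Th17 libraries overlapped. Means were 2.75 ± 1.37, 18.6 ± 5.57 and 3.86 ± 1.70 FPKM in that order of groups. The sister subunits did not share this pattern. Ppp2r2a stood at 18.5 to 21.9 FPKM in Th17-derived Th1, 17.3 to 20.2 in Th1 and 22.8 to 24.5 in Th17 cells, and Ppp2r2d at 17.1 to 21.5, 22.3 to 25.8 and 20.6 to 26.5 FPKM. Ppp2r2b was listed at 0 in 8 libraries and at 0.0300 FPKM in 1 Th17 library.

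Esm1, the most abundant of the 5 in Th1 cells, was intermediate in converted cells. It stood at 7.90, 7.92 and 22.9 FPKM in Th17-derived Th1, 56.0, 69.2 and 106 FPKM in Th1 and 1.08, 1.02 and 7.25 FPKM in Th17 cells. No 2 groups overlapped, although the lowest Th17-derived Th1 library, at 7.90 FPKM, was close to the highest Th17 library. Means were 12.9 ± 8.63, 77.0 ± 25.7 and 3.12 ± 3.58 FPKM. In each group the highest value was that of replicate 3, the library with the most Cd8a; the part of CD8 T cells in these levels was not tested beyond the fit with Cd8a and Cd8b1 as a covariate given below.

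Sulf2 was also intermediate, and with less spread. Its values were 5.12, 4.38 and 9.94 FPKM in Th17-derived Th1, 46.6, 24.0 and 34.6 FPKM in Th1 and 0.765, 0.568 and 0.765 FPKM in Th17 cells. Again no 2 groups overlapped. Means were 6.48 ± 3.02, 35.1 ± 11.3 and 0.699 ± 0.114 FPKM, so converted cells held 18.5% of the Th1 mean and 9.27 times the Th17 mean. Sulf1, which encodes the other extracellular sulfatase of this kind, was listed at 0 in all 9 libraries. Sulf2 shares 154 of its 5871 exon bases with Ncoa3 on the opposite strand, and whether the counting used strand is not given in the sources used here, so the part of Ncoa3 reads in the Sulf2 values was not tested. Ncoa3 stood at 28.4 to 32.0 FPKM in Th17-derived Th1, 18.4 to 22.3 in Th1 and 27.0 to 32.9 in Th17 cells.

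Ccdc136 lay above the Th17 level in converted cells but nearer to it than to the Th1 level. It stood at 0.760, 1.04 and 2.75 FPKM in Th17-derived Th1, 21.1, 12.2 and 18.2 FPKM in Th1 and 0.543, 0.313 and 0.612 FPKM in Th17 cells. The groups did not overlap, and the Th17-derived Th1 mean of 1.52 ± 1.07 FPKM was 8.85% of the Th1 mean of 17.1 ± 4.56 FPKM. It was 3.10 times the Th17 mean of 0.490 ± 0.156 FPKM. Ccdc136 reached the filter for testing only with its Th1 libraries. In Th17-derived Th1 cells replicate 3 was the highest library for all 5 genes, whereas in Th1 cells it was the highest for 1 of 5 and in Th17 cells for 3 of 5.

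**Figure D1:**
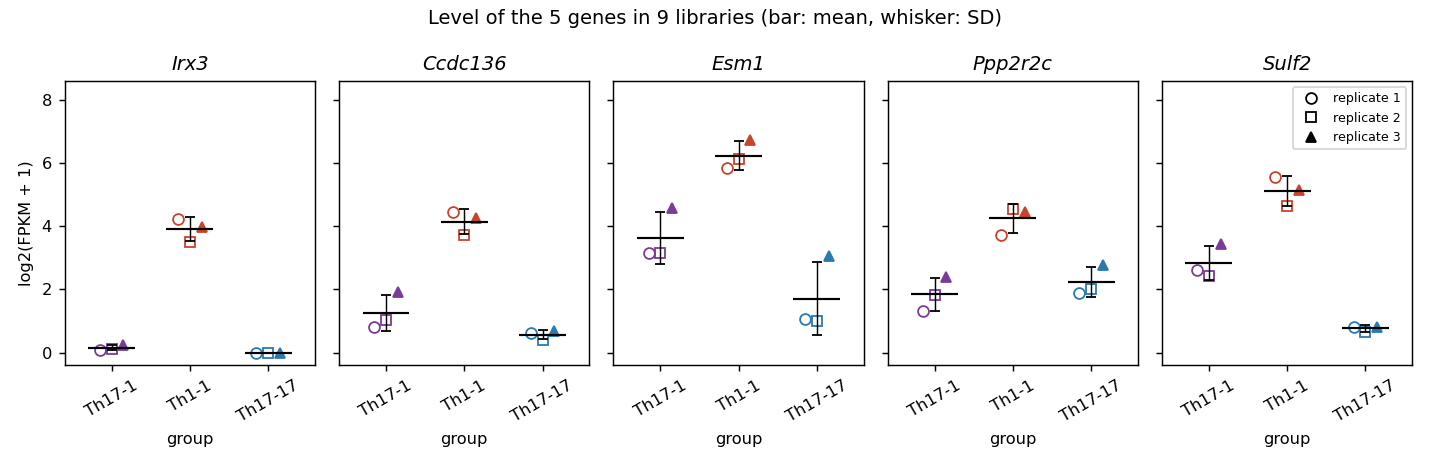
Level of each of the 5 genes as log2(FPKM + 1) (vertical axis) in the 3 libraries of each group (horizontal axis); marker shapes are replicates, bars the mean and whiskers the SD. Th1 libraries lie above all others for each gene. Th17-derived Th1 libraries lie between the other groups for Esm1, Sulf2 and Ccdc136, nearer to Th17 for Ccdc136, and at or near the Th17 level for Irx3 and Ppp2r2c.

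The label of this gene group says that converted cells did not gain these transcripts, which can be asked from Th17-derived Th1 against Th17 cells. Sulf2 goes against it: it was 4.19-fold higher in Th17-derived Th1 than in Th17 cells on the log2(FPKM + 1) scale (log2 difference 2.07 ± 0.29, SE, 95% interval 1.42 to 2.72, limma adjusted p = 0.00208, Benjamini-Hochberg over 10538 genes), higher in 3 of 3 libraries than in any Th17 library. Esm1 was 3.79-fold higher (log2 difference 1.92 ± 0.58, interval 0.62 to 3.23) and missed the threshold of 0.05 (limma adjusted p = 0.0519). This fit took no account of replicate number, and with replicate number as a block Esm1 passed (limma adjusted p = 0.00259). Ccdc136 had a log2 difference of 0.68 (interval 0.03 to 1.33, limma adjusted p = 0.133), Irx3 of 0.16 (-0.24 to 0.55, 0.565) and Ppp2r2c of -0.39 (-1.14 to 0.36, 0.444). The intervals of Irx3 and Ppp2r2c span 0, whereas those of Ccdc136 and Esm1 lie above 0. For Irx3 the value is set by the pseudocount, with a log2 difference of 1.07 at a pseudocount of 0.1 (limma adjusted p = 0.0562) and 0.03 at 5 (0.868). So without a replicate block 1 of 5 genes was called higher. In the same fit 6.43% of the 10538 tested genes were called higher and 9.49% lower (15.9% in all). In 4 of the 5, without Ppp2r2c, the Th17-derived Th1 libraries stood above the Th17 libraries with no overlap, as in 13.2% of tested genes. The Th17-derived Th1 libraries of this comparison also served to choose the genes for low values there, which pulls these differences down.

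Esm1 passed in 8 of 22 alternative settings, among them the fit with Cd8a and Cd8b1 as a covariate (log2 difference 2.30, limma adjusted p = 0.00443) and the fit without replicate 3 of every group (2.12, limma adjusted p = 0.0011), both added after the data were seen. Its adjusted p-values over these 22 settings ran from 0.000998 to 0.179. Those of Sulf2 ran from 1.88e-05 to 0.018 over the same 22.

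Th1 against Th17 cells uses the Th1 libraries that chose the genes for high values, so it is described here and not tested. On the log2(FPKM + 1) scale Sulf2 was 20.5-fold higher in Th1 than in Th17 cells (log2 difference 4.36), Esm1 23.1-fold (4.53), Ccdc136 11.9-fold (3.58) and Ppp2r2c 4.07-fold (2.02). Irx3, listed at 0 in Th17 cells, had a log2 difference of 3.91 that depends on the pseudocount of 1. Of all tested genes 42.9% were called in this comparison, 14.0% higher, and 16.4% were higher with no overlap, as all 5 were; nothing is read from this for genes chosen in this way. The median log2 difference of all tested genes was -0.12 in Th17-derived Th1 and -0.17 in Th1 cells against Th17 cells, and -0.01 in both with median-ratio scaling.

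**Figure D2:**
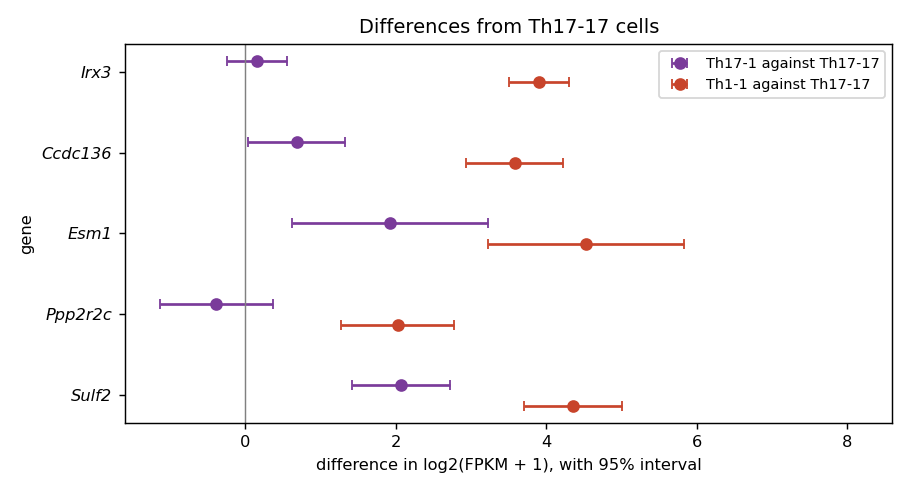
Difference in log2(FPKM + 1) from Th17 cells (horizontal axis) for each gene (vertical axis), with Th17-derived Th1 in purple and Th1 in red; points are estimates over 3 libraries a group and whiskers their 95% intervals. The purple intervals of Irx3 and Ppp2r2c span 0 and that of Sulf2 runs from 1.42 to 2.72, and each red point lies to the right of the purple one.

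For the difference that chose the genes, the log2 values of Th17-derived Th1 against Th1 cells were -3.75 for Irx3, -2.90 for Ccdc136, -2.61 for Esm1, -2.41 for Ppp2r2c and -2.29 for Sulf2, where 4.81% of tested genes were called lower and 12.9% were lower with no overlap, as all 5 were. A position puts these beside other genes: how far the Th17-derived Th1 mean lies from the Th17 mean, as a part of the gap from Th17 to Th1, on the log2(FPKM + 1) scale, so that 0 is the Th17 level and 1 the Th1 level. Over the 147 genes called higher in Th1 than in Th17 cells by at least 2 log2 units, the median position was 0.627 and the quartiles were 0.461 and 0.777. Ppp2r2c had the lowest position of the 147 at -0.191, Irx3 had rank 3 at 0.0399 and Ccdc136 rank 6 at 0.190. Esm1 at 0.425 and Sulf2 at 0.474 stood nearer to the middle, among the 32.0% of genes (47 of 147) below 0.5. In single converted libraries the position of Esm1 was 0.320, 0.320 and 0.634 and that of Ccdc136 0.0689, 0.129 and 0.373, the last being replicate 3 in each case. These positions use the values that chose the genes and are a description. They depend on the pseudocount of 1, above all for genes near 0 such as Irx3 and Ccdc136. Positions of single genes at other pseudocounts are not given.

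**Figure D3:**
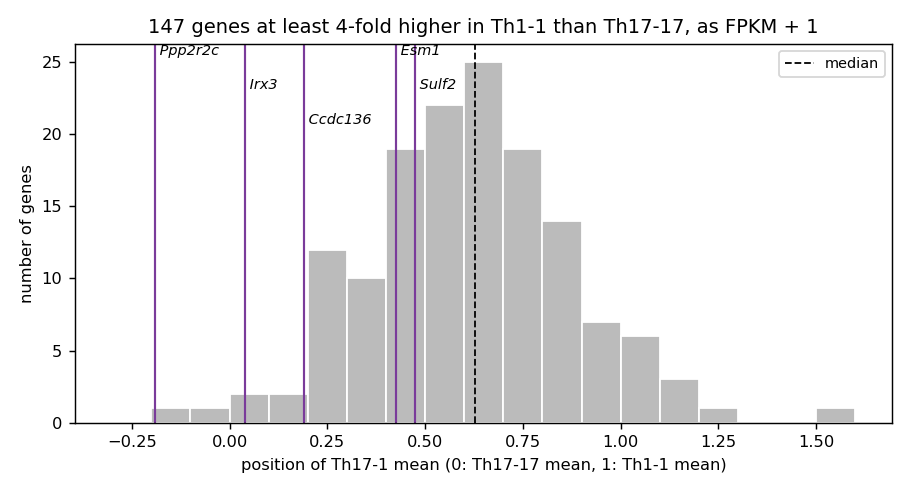
Number of genes (vertical axis) by position of the Th17-derived Th1 mean between the Th17 mean (0) and the Th1 mean (1) (horizontal axis), for 147 genes at least 4-fold higher in Th1 than in Th17 cells as FPKM + 1; purple lines mark the 5 genes and the dashed line the median of 0.627. Ppp2r2c, Irx3 and Ccdc136 lie in the thin left end, and Esm1 at 0.425 and Sulf2 at 0.474 lie nearer to the median but below it.

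Neighbors on the chromosome were chosen by position alone, as the 3 nearest protein-coding genes on each side, 30 in all, of which 22 were tested. In Th17-derived Th1 against Th1 cells 6 of the 22 were lower and 1 higher (10.5% of all tested genes were called, 4.81% lower and 5.67% higher). Next to Ccdc136, 6262 bases away, lies Flnc, which encodes the actin cross-linker filamin C. Flnc stood at 0.0430, 0.0254 and 0.0657 FPKM in Th17-derived Th1, 2.02, 1.10 and 1.91 FPKM in Th1 and 0 in Th17 cells. Flnc reached the filter through the Th1 libraries, where it is high, so the filter favored its call among the 6 lower neighbors. The same holds for Gpx8, and neither call is read as a result. The call of Flnc was lost in 0 of 18 alternative fits and that of Gpx8 in 4 of 21. Atp6v1f, a proton pump subunit gene beyond Flnc, was also lower, at 57.8 to 60.7 FPKM in Th17-derived Th1 and 84.1 to 91.8 FPKM in Th1 cells (-0.57, limma adjusted p = 0.00325), and Calu, on the other side, stood at 37.8 to 44.1 and 36.2 to 48.8 FPKM (0.03, limma adjusted p = 0.895).

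Esm1 lies beside the granzyme genes Gzmk and Gzma, which encode proteases of cytotoxic granules. Gzmk stood at 2.01, 4.95 and 8.47 FPKM in Th17-derived Th1, 26.7, 26.2 and 50.4 FPKM in Th1 and 2.45, 3.28 and 11.2 FPKM in Th17 cells. It was lower in Th17-derived Th1 than in Th1 cells (log2 difference -2.61, limma adjusted p = 0.0179) and was not called against Th17 cells (-0.03, 95% interval -1.23 to 1.18, limma adjusted p = 0.976). Gzma stood at 584, 625 and 1708 FPKM in Th17-derived Th1, 1779, 1795 and 3152 FPKM in Th1 and 182, 197 and 885 FPKM in Th17 cells, and was called higher in Th1 than in Th17 (2.76, limma adjusted p = 0.00751) but not in the comparisons of Th17-derived Th1. Gpx8, the next gene, stood at 0.442 to 1.98, 3.88 to 7.05 and 0 to 0.656 FPKM in the same order. Replicate 3 was the highest library of each group for Gzmk, Gzma and Gpx8, as for Esm1, and the call of Gzmk against Th1 was lost in 3 of 22 alternative fits. One of 3 annotated Gzmk transcripts runs across Esm1 on the other strand but shares 0 exon bases with it. Snx18, on the far side of Esm1, stood at 8.78 to 9.52 FPKM in Th17-derived Th1 and 9.58 to 11.3 FPKM in Th1 cells (-0.17, limma adjusted p = 0.321).

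Around Irx3, Ppp2r2c and Sulf2, 2 of 15 tested neighbors were called lower in Th17-derived Th1 than in Th1 cells, Man2b2 and Prex1, where 4.81% of all tested genes were. Around Ccdc136 and Esm1 4 of 7 were, among them Flnc and Gpx8, whose calls were favored by the filter. This grouping of the loci was not planned beforehand, and nothing is read from the contrast between these counts. Fto, whose introns are known to contact Irx3, averaged 11.5 ± 0.984 FPKM in Th17-derived Th1, 9.59 ± 1.32 in Th1 and 13.1 ± 0.445 in Th17 cells and was not called in Th17-derived Th1 against Th1 (limma adjusted p = 0.200). Man2b2, a lysosomal mannosidase gene before Ppp2r2c, was lower in Th17-derived Th1, at 23.7 to 37.8 FPKM against 49.2 to 57.4 FPKM in Th1 cells (log2 difference -0.90, limma adjusted p = 0.0134), while Wfs1, the nearest gene on the other side, was not called (limma adjusted p = 0.777). Prex1, an exchange factor for Rac beyond Sulf2, was lower at 34.8 to 54.2 against 79.2 to 90.2 FPKM (-0.99, limma adjusted p = 0.00479), and Ncoa3 was higher (0.58, limma adjusted p = 0.0127).

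**Figure D4:**
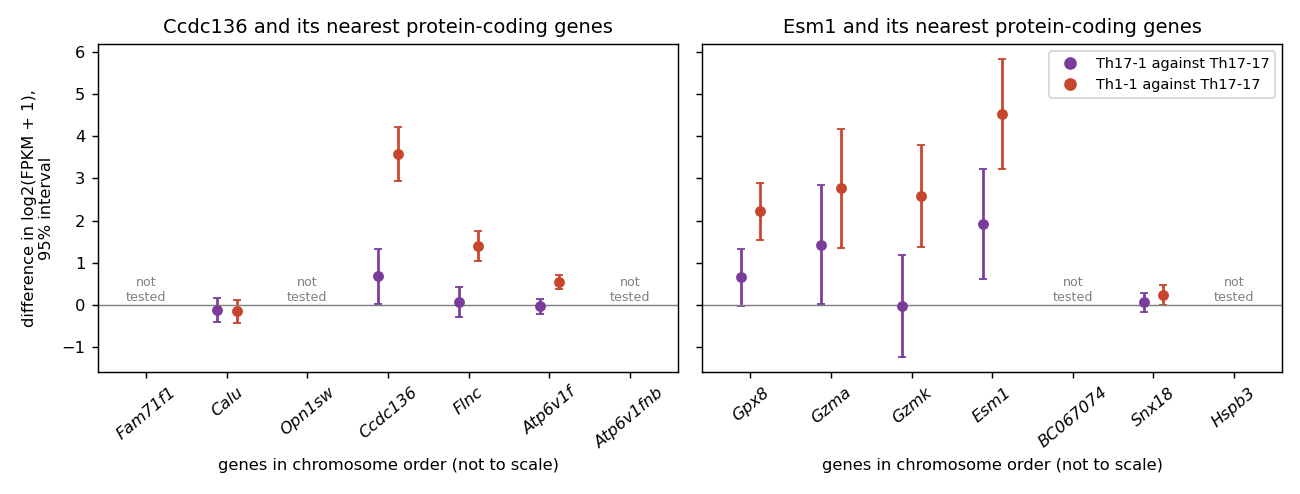
Difference in log2(FPKM + 1) from Th17 cells (vertical axis, with 95% intervals) for Ccdc136 and Esm1 and their 3 nearest protein-coding genes on each side, in chromosome order (horizontal axis); purple is Th17-derived Th1 and red is Th1. Flnc and Atp6v1f beside Ccdc136 and Gzmk beside Esm1 have red points above 0 and purple points at or near 0.

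Among 8355 genes with a mean of at least 5 FPKM in at least 1 group, the 3 with the pattern most like each of the 5 were found by Pearson r of log2(FPKM + 1) over the 9 libraries, which fall into 3 groups, so r is a description. Nearest to Irx3 was Rai14 (r = 0.990), an actin-binding protein gene. Rai14 stood at 1.43 to 1.72 FPKM in Th17-derived Th1, 9.16 to 10.5 in Th1 and 1.47 to 1.95 in Th17 cells. Gipc1 and Slc43a3 followed with r of 0.985 and 0.984. Pearson r takes no account of the size of a difference. Gipc1 stood at 25.8 to 26.5, 28.9 to 29.8 and 25.7 to 26.2 FPKM in the same order of groups and was not called in the 3 comparisons. Ccdc136 was followed by Slc20a1 (0.993), a phosphate transporter gene, Itpk1 (0.993) and Itgb2 (0.991). Itgb2, which encodes the beta chain of LFA-1, stood at 157 to 204 FPKM in Th17-derived Th1, 290 to 315 in Th1 and 138 to 144 in Th17 cells. Nearest to Esm1 were the interferon-induced gene Mx1 (0.995), the phosphatase gene Dusp5 (0.992) and Nkg7 (0.990), a gene of cytotoxic granules. Mx1 stood at 9.72 to 24.3 FPKM in Th17-derived Th1, 40.1 to 55.6 in Th1 and 1.82 to 9.42 in Th17 cells. Sulf2 was followed by Psrc1 (0.996), the costimulatory ligand gene Cd80 (0.994) and the basement membrane gene Nid2 (0.993), with Cd80 at 6.32 to 9.13, 17.7 to 21.1 and 2.30 to 3.37 FPKM in the same order. Ppp2r2c had Etfb (0.979), Vps18 (0.974) and Sptlc2 (0.971) nearest to it, of which Etfb stood at 47.1 to 53.7, 71.7 to 93.8 and 48.8 to 63.7 FPKM. Vps18 was not called in the 3 comparisons either.

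Sulf2 acts on heparan sulfate, so the genes that build and edit this chain were counted from a list of 30, of which 18 were tested. Leaving Sulf2 aside, 0 of 17 were higher and 6 were lower in Th17-derived Th1 than in Th17 cells, where 6.43% of all tested genes were called higher and 9.49% lower. Th1 cells held 2 higher and 9 lower than Th17 cells did, where 14.0% of all tested genes were called higher and 28.9% lower. The medians were -0.21 and -0.39 log2 units, beside -0.12 and -0.17 for all tested genes. With median-ratio scaling the counts were 1 higher and 4 lower, and 3 higher and 6 lower. The shares of all tested genes given here are without this scaling, under which 63.1% and 53.9% of all calls were higher. The rescaled counts are therefore not to be set beside those shares. In Th17-derived Th1 against Th1 cells 4 of 17 were higher and 0 lower, where 5.67% of all tested genes were called higher and 4.81% lower. Hs3st3b1, a heparan sulfate 3-O-sulfotransferase gene, had the largest difference among the lower ones, at 2.66 to 4.02 FPKM in Th17-derived Th1 and 1.00 to 1.15 FPKM in Th1 against 6.40 to 13.5 FPKM in Th17 cells (log2 differences -1.42 and -2.42, limma adjusted p = 0.00447 and 0.000156). B4galt7 and Xylt2 were lower in both groups than in Th17 cells (-0.94 and -0.67 in Th17-derived Th1, limma adjusted p = 0.00219 and 0.00557). They build the start that heparan sulfate shares with chondroitin and dermatan sulfate chains, and were counted in this list only. Hs6st1, which adds the 6-O-sulfate that Sulf2 removes, stood at 5.51 to 8.39 FPKM in Th17-derived Th1, 2.08 to 3.95 in Th1 and 5.27 to 7.62 in Th17 cells. It was higher in Th17-derived Th1 than in Th1 cells (1.03, limma adjusted p = 0.0190) and was not called against Th17 cells (0.08, 95% interval -0.40 to 0.57, limma adjusted p = 0.810). Ext1, a chain polymerase gene, was placed the same way, at 1.73 to 1.90, 0.601 to 0.793 and 1.64 to 2.16 FPKM (0.76 against Th1, limma adjusted p = 0.00572). Sulf2 aside, Hpse, the heparanase gene, and Extl2 were the 2 genes called higher in Th1 than in Th17 cells. The call of Extl2 was lost in 11 of 21 alternative fits, as was that of Glce among the lower genes in Th17-derived Th1. Hpse stood at 0.902 to 2.21 FPKM in Th17-derived Th1, 1.54 to 2.79 in Th1 and 0.455 to 0.686 in Th17 cells. It reached the filter only with its Th1 libraries, which favors its call.

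**Figure D5:**
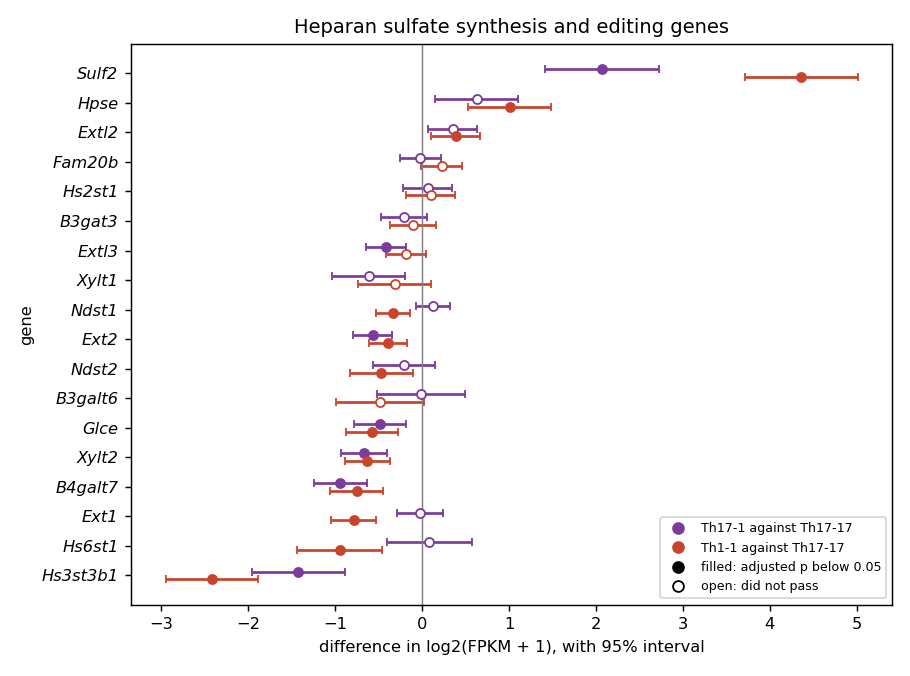
Difference in log2(FPKM + 1) from Th17 cells (horizontal axis, with 95% intervals) for the 18 tested genes of heparan sulfate synthesis and editing (vertical axis); purple is Th17-derived Th1, red is Th1, and filled points have an adjusted p below 0.05. Sulf2 lies apart at the top right, and Hs3st3b1 at the lower left in both comparisons. The fill of the red Sulf2 point is not read as a test, since the Th1 libraries served to choose this gene.

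Sulf2 was also set among 15 sulfatases and their activating enzymes. Without it, 0 of 9 tested were higher and 2 lower in Th17-derived Th1 than in Th17 cells, while the Th1 libraries had 1 higher and 6 lower. Of all tested genes 6.43% and 14.0% were called higher and 9.49% and 28.9% lower in these comparisons. With median-ratio scaling, where these shares do not apply, the lower sulfatases numbered 1 and 3. Arsb, a lysosomal sulfatase gene, stood at 12.4 to 24.7 FPKM in Th17-derived Th1, 19.6 to 34.1 in Th1 and 45.8 to 51.2 in Th17 cells (-1.44 in Th17-derived Th1, limma adjusted p = 0.00534). Sgsh, which degrades heparan sulfate in lysosomes, was lower in Th1 than in Th17 cells (-1.14, limma adjusted p = 0.00142). In Th17-derived Th1 against Th1 cells 1 of 9 was higher and 0 lower, where 5.67% of all tested genes were called higher. This was Sgsh (0.71, limma adjusted p = 0.0370), and the call was lost in 10 of 22 alternative fits.

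Of the proteoglycan core genes other than Esm1, 3 of 8 tested were higher and 0 lower in Th17-derived Th1 than in Th17 cells, while the Th1 libraries had 4 higher and 2 lower. Of all tested genes 6.43% were called higher in Th17-derived Th1, and 14.0% higher and 28.9% lower in Th1 cells. With median-ratio scaling, where these shares do not apply, 1 core gene in place of 2 was lower in Th1 cells. Vcan, which encodes versican, stood at 2.85, 2.15 and 2.89 FPKM in Th17-derived Th1, 4.98, 5.53 and 7.34 FPKM in Th1 and 0.0385, 0.0219 and 0.0295 FPKM in Th17 cells. It was higher in Th17-derived Th1 than in Th17 cells (log2 difference 1.81, limma adjusted p = 0.000173) and lower than in Th1 cells (-0.93, limma adjusted p = 0.00646), the same order of groups as Esm1. Cd44, the hyaluronan receptor gene, was at 53.0 to 66.7, 57.3 to 77.2 and 20.8 to 30.1 FPKM, higher in Th17-derived Th1 than in Th17 cells (1.23, limma adjusted p = 0.0016) and not called against Th1. Srgn, the granule proteoglycan serglycin, was called higher than in Th17 cells at 336 to 473 against 240 to 249 FPKM (0.70, limma adjusted p = 0.0163), and this call was lost in 5 of 22 alternative fits, among them quantile normalization and the fit without replicate 3. Sdc3, a syndecan gene, was placed the other way at 6.05 to 10.6 FPKM in Th17-derived Th1, 1.47 to 2.41 in Th1 and 5.31 to 15.5 in Th17 cells (1.75 against Th1, limma adjusted p = 0.0134). Such cores also carry chondroitin and dermatan sulfate chains, whose shared start was counted with heparan sulfate above. Of 10 tested genes of the later steps, 0 were called in Th17-derived Th1 against Th17 cells by limma and 2 had an unadjusted p under 0.05. Th1 cells had 2 higher and 1 lower than Th17 cells. Chst11, a chondroitin sulfotransferase gene, was among the higher, at 16.1 to 22.7 FPKM in Th1 against 3.36 to 7.82 FPKM in Th17 cells (1.87, limma adjusted p = 0.00312), and stood at 6.01 to 14.3 FPKM in Th17-derived Th1 cells.

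Esm1 is known as a gene of endothelial tip cells, so endothelial markers were examined beside it. Of 8 such markers, 6 stayed below 1 FPKM in every library, and 2 of these 6, Emcn and Cldn5, were at 0 in all 9. Their sum of 20.2 to 54.8 FPKM was carried by Pecam1, which T cells also express, and ran at 44.8 to 54.8 FPKM in Th17-derived Th1, 20.2 to 46.4 in Th1 and 31.5 to 38.8 in Th17 cells. Kdr, a VEGF receptor gene, was highest in Th1 cells like Esm1, and stood at 0.102 to 0.380 FPKM in Th17-derived Th1, 0.328 to 1.04 in Th1 and 0 to 0.0355 in Th17 cells. Cdh5, another of the 8 markers, went the other way, at 0.0655 to 0.233 FPKM in Th17-derived Th1, 0 in Th1 and 0.410 to 0.583 in Th17 cells. The part of endothelial cells in the Esm1 values was not tested. The 8 fibroblast markers together summed to 0.133 to 0.473 FPKM. Of 5 tested VEGF and tip cell genes other than Esm1, 1 was lower in Th17-derived Th1 than in Th17 cells and 2 were lower in Th1, where 9.49% and 28.9% of all tested genes were. Unc5b, a netrin receptor gene counted in both, stood at 0.251 to 0.383 FPKM in Th17-derived Th1, 0.0323 to 0.200 in Th1 and 3.55 to 4.19 in Th17 cells, and reached the filter through its Th17 libraries alone. In Th17-derived Th1 against Th1 cells 2 of 5 were higher and 0 lower, where 5.67% of all tested genes were called higher. These were Pgf (log2 difference 1.76, limma adjusted p = 0.0288) and Cxcr4 (1.30, limma adjusted p = 0.0221), lost in 7 of 21 and 5 of 22 alternative fits.

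Among PP2A subunits and regulators other than Ppp2r2c, 1 of 23 tested was higher and 4 were lower in Th17-derived Th1 than in Th17 cells, while Th1 cells had 1 higher and 7 lower. Of all tested genes 6.43% and 14.0% were called higher and 9.49% and 28.9% lower in these comparisons, so the lower count in Th1 cells lay near the background. In Th17-derived Th1 against Th1 cells 1 was higher and 0 lower, where 5.67% of all tested genes were called higher and 4.81% lower. With median-ratio scaling, where these shares do not apply, the counts against Th17 cells were 2 higher and 1 lower in Th17-derived Th1 and 4 and 4 in Th1. Some calls without this scaling were lost in many of the 22 alternative fits. In Th17-derived Th1 these were Ppp2r5e (12 fits) and Strn (14), and in Th1 Ppp2r5b (18) and Ppp2r5c (13). Ppp2r3a, another regulatory subunit gene, had the largest difference, at 0.476 to 0.647 FPKM in Th17-derived Th1 and 0.331 to 0.693 FPKM in Th1 against 1.34 to 2.14 FPKM in Th17 cells, and reached the filter through its Th17 libraries alone. The catalytic subunit gene Ppp2ca averaged 40.9 FPKM in Th17-derived Th1, 41.2 in Th1 and 38.6 in Th17 cells and the scaffold gene Ppp2r1a 79.8, 86.6 and 83.3 FPKM, and neither was called in the 3 comparisons.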

How the data were processed

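The authors deposited FPKM values for 22017 gene symbols in 9 libraries, 1 column each, per the file headers. The submitters' processing notes name the mm10 build, HISAT2 and DESeq2; versions, annotation, strand and multi-mapped reads are not described in the labels. FPKM hold no read counts and depend on each library's composition, so other scalings were tried as well. The test used log2(FPKM + 1), a scale that understates changes of low genes, on the 10538 genes that reached 1 FPKM in 3 or more libraries. limma (3.58.1, R 4.3.3) with a mean-variance trend was fitted to all 9 libraries (6 residual degrees of freedom); two-sided p-values were adjusted over all tested genes (Benjamini-Hochberg, threshold 0.05), and intervals are 95%. The fit was tried on simulated data with changes added to well-expressed genes only and with independent noise in each library. That trial does not cover genes near 0 or effects shared by same-numbered replicates. Positions and neighbors come from GENCODE (GRCm38), which holds 21962 of the symbols. The 5 genes and the 7 gene lists were chosen with earlier results of these data known. Genes named beside the 5 were neighbors, nearest patterns, called list genes of largest difference, sister genes and a few marker genes, with some called and uncalled list genes added after their values were seen. Figures were drawn with matplotlib 3.10.9 (Python 3.11.15, pandas 2.3.3).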

Additional observations from a re-analysis of the deposited data

How the results depend on the processing

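The differences of the 5 genes from Th17 cells kept their sign in every alternative fit that tested them, and Irx3 fell below the filter without any 1 Th1 library. In Th17-derived Th1 against Th17 cells, Esm1 passed with a replicate block (log2 difference 1.924), a pseudocount of 0.1 (2.414), equal sums (1.916), array weights (2.035), the Cd8a and Cd8b1 covariate (2.303) and without replicate 3 of all groups (2.119), and ran from 1.450 to 2.593 without 1 library. Ccdc136 passed with array weights (0.467). Replicate numbers were not taken to pair libraries in the main fit. Same-numbered deviations from group means correlated at -0.178 to 0.659 across genes, and not every library correlated best with its own number. Replicate 3 held the most Cd8a in each group, and whether same-numbered libraries share an origin was not tested. The call of Esm1 depends on whether replicate number is used. With the block 1681, 4452 and 1255 genes were called in Th17-derived Th1 against Th17, Th1 against Th17 and Th17-derived Th1 against Th1, and no other call of the 5 genes changed. Counts of called genes depended on the setting. In Th17-derived Th1 against Th17 they ran from 681 to 2342 without 1 library (1678 as reported) and were 4603 with array weights, in Th1 against Th17 from 3013 to 5400 (4526) and 7116, and in Th17-derived Th1 against Th1 from 315 to 1861 (1104) and 5430, with 711 without replicate 3 and 703 from 2 groups only. Called list genes ran from 8 to 24 (18 as reported), 26 to 41 (41) and 4 to 17 (14) without 1 library in the same order, and with array weights numbered 41 in Th17-derived Th1 against Th17 and 39 against Th1. The share of calls that were higher against Th17 cells moved with scaling, in Th17-derived Th1 to 63.1% with median-ratio and 54.5% with quantile normalization (40.4% as reported), and in Th1 to 53.9% and 45.6% (32.7%). The cause was not tested. The median position was 0.614 to 0.672 under 3 alternatives. Irx3 against Th1 was -6.07 with a pseudocount of 0.1 and -1.90 with 5, since the added constant sets the difference of a gene near 0. The unknown depth limits what the lowest values, such as Irx3 in converted cells, can show.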

Other observations

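Of the 147 genes at least 2 log2 units higher in Th1 than in Th17 cells, 10 had a position below 0.25 in Th17-derived Th1 cells, among them Ppp2r2c, Irx3 and Ccdc136. The other 7 are named here after their values were seen, as a description with no test. Irx3, Twist1, Mecom, Dnah3 and Col6a1 averaged below 1 FPKM in both Th17-derived Th1 and Th17 cells, where the pseudocount of 1 lowers the position. Ccdc136 and Igf2bp3 lay near the pseudocount in these groups as well, and their place below 0.25 may depend on it. Twist1, a transcription factor gene known to be induced in repeatedly activated Th1 cells, averaged 0.0806 FPKM in Th17-derived Th1, 3.33 in Th1 and 0 in Th17 cells, a pattern near that of Irx3 at a lower level. Mecom, another transcription factor gene, averaged 0.485, 4.11 and 0 FPKM in the same order. The RNA-binding protein gene Igf2bp3 averaged 1.62, 9.80 and 0.784 FPKM, and the collagen gene Col6a1 averaged 0.811, 6.83 and 0.282 FPKM. Plin2, which encodes a lipid droplet protein, averaged 6.00, 20.4 and 4.001 FPKM, and Dnah3, a dynein gene, 0.353, 4.001 and 0.00690 FPKM. Gzmk, described beside Esm1, completed the set at 5.14, 34.4 and 5.63 FPKM. At the other end 13 of the 147 genes had a position above 1, so that their mean log2(FPKM + 1) was higher in Th17-derived Th1 than in Th1 cells.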
